A study of Mus musculus with 8 samples.

Results

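*Trp53*, the gene of the tumour suppressor p53, and 9 genes known as its direct targets were followed in mouse embryonic stem (ES) cells by RNA sequencing. These 10 genes were taken by symbol, with no filter on their values but with earlier results of these data known. All 10 were among the 23337 gene names listed. Total RNA came from 4 ES cell clones, numbered 6, 20, 30 and 36, each sampled at passage 6 (P6) and again at passage 16 (P16), for a total of 8 libraries (n = 4 clones at each passage). The labels describe every clone as wild type, of strain 129S1, derived from the blastocyst, grown in DMEM with LIF and expanded in culture, and the cells carried GFP in the Rosa26 locus. In the methods, however, both C57BL6 and 129S1 appear as backgrounds of ES cells, and which of these was sequenced is not stated. No DNA-damaging agent is named for any group, and passage is the only condition compared. A P16 culture is a later culture of the P6 clone that has the same number, so the replicate is the clone.

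p53 is a transcription factor that is held low by its own target Mdm2, a ubiquitin ligase, and stabilised when DNA is damaged. It binds a pair of decamers in the DNA near its targets, whose products arrest the cell cycle, promote apoptosis, dampen growth signalling or feed back on p53. Mouse ES cells are known to contain abundant p53 without external damage. The comparison asked whether moderate expansion of ES cells in culture, during which their telomeres lengthen, went with a change in the transcripts of this pathway.

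The decamer pair is shown first, since it is the kind of sequence that p53 binds near its targets. A p53 decamer motif of 2 decamers of 10 bases side by side, which is its own reverse complement so that 1 search covers both strands, was matched to the RefSeq promoter windows of GRCm38.p6, from 250 bases before to 50 bases after each start. There were 11 windows for 8 of the 10 genes, and *Zmat3* and *Trp53inp1* had none. Where a gene had several windows, its best match is printed, while the shares of windows below count each window singly. In each decamer the motif asks for 3 purines, C, A or T, A or T, G and 3 pyrimidines. Capitals mark bases that match the motif and lower case marks mismatches.
*Cdkn1a*: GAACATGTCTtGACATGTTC
*Ccng1*: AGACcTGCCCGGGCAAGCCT
*Trp53*: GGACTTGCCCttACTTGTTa
*Bbc3*: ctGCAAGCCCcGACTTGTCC
The *Cdkn1a* match lies on the plus strand at chr17:29090928-29090947, 51 bases before the start, and has 1 mismatch. The *Ccng1* match lies on the minus strand at chr11:40755462-40755481, 195 bases before the start, and also has 1 mismatch. Of all 32851 windows, 29 (0.0883%) held a match with as few mismatches. The *Trp53* match at chr11:69580284-69580303 and the *Bbc3* match at chr7:16309486-16309505, both on the plus strand, had 3 mismatches, which 6.29% of windows reached, and the best matches of *Mdm2*, *Phlda3* and *Sesn2* had 5, which 76.6% reached. The *Eda2r* window had 6 mismatches at best, which 98.5% of windows reached. Another *Cdkn1a* window, chr17:29093519-29093818, had 5 at best, and the further *Bbc3* windows had 5 and 6. These are matches of letters within these windows and no measurement of binding.

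In the strand given, the *Cdkn1a* and *Ccng1* matches are shown again with 30 bases on each side, with the motif in capitals.
*Cdkn1a* with flanks: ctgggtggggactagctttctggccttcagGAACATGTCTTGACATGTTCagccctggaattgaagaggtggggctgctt
*Ccng1* with flanks: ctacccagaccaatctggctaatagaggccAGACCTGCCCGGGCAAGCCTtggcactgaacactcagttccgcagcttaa
Both genes carry such a sequence close to a listed start, for *Cdkn1a* in only 1 of its windows. As described below, their levels and their behaviour between libraries differed.

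The libraries held between 21394069 and 34295561 reads on genes, recovered as whole numbers from the deposited normalized counts, which are the counts divided by 1 size factor per library. Pluripotency markers (6 genes, *Pou5f1* and *Nanog* among them) summed to between 83870 and 92360 normalized counts at P6 and between 89130 and 92140 at P16, and no member of that list was at 0 in any library. Fibroblast markers, which feeder cells would bring, summed over 8 genes to between 6429 and 10830 at P6 and between 5883 and 9473 at P16. Most of that sum came from *Acta2*, *Col1a2* and *Col1a1* (means 3343, 2614 and 1667). *Thy1*, *Twist2* and *Lum* averaged only 49.3, 4.89 and 3.79, and *Lum* was at 0 in at least 1 library. Markers of differentiated cells summed over 6 genes to between 1247 and 3383 at P6 and between 1038 and 3014 at P16, and none was at 0. In such bulk RNA, fewer cells that express a gene and less of its RNA per cell cannot be told apart.

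Rows of the deposited table were checked for register. There were 644 groups of names in which 1 name continues another with a digit, so that rows could be displaced. As lines of name and count, between 130 and 220 neighbours were out of alphabetical order in 7 libraries. In the P6 library of clone 6, 2 were. Not every group need be displaced, and 202 names whose order could be fixed moved in at least 1 library. Of the 10 genes, 9 lie outside these groups. *Eda2r*, which encodes a receptor of the tumour necrosis factor receptor family for ectodysplasin A2, continues *Eda*, the gene of ectodysplasin A, with a digit. As listed, *Eda2r* had 2505 normalized counts in the P6 library of clone 6 and 109, 145 and 126 in those of clones 20, 30 and 36, and at P16 it had 129, 106, 117 and 119 in clones 6, 20, 30 and 36. *Eda* showed the opposite, with 70.8 in the P6 library of clone 6 and between 1779 and 2783 in the other 7.

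Joined with its count, the name *Eda* sorts after *Eda2r* where its count is 53 reads, as in the P6 library of clone 6, and before it where the lower of the 2 counts is between 106 and 176 reads, as in the other 7. In those 7 libraries only the higher count can belong to *Eda2r* if the lines were in alphabetical order, so its rows were displaced there. With the order restored, a step chosen after the data were seen, *Eda2r* had 2505, 2665, 2032 and 2783 normalized counts in clones 6, 20, 30 and 36 at P6. At P16 it had 1779, 2411, 1916 and 2284. The plot of both genes by library shows the exchange, and below *Eda2r* is given both ways wherever the 2 differ.

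**Figure D1:**
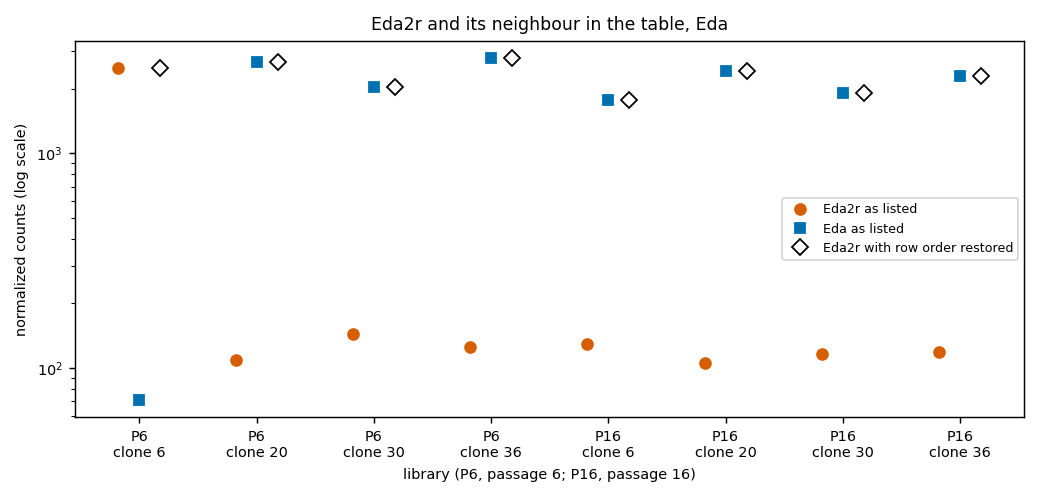
Normalized counts (log scale) of Eda2r as listed (circles), Eda as listed (squares) and Eda2r with the row order restored (open diamonds) in each of the 8 libraries. Eda2r as listed is at 2505 in the P6 library of clone 6 and between 106 and 145 in the other 7, where the value listed for Eda is between 1779 and 2783.

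All 10 genes were well expressed in every library. Per kilobase of exon (GENCODE M21, GRCm38), *Ccng1* had the highest level, 3495 ± 205 normalized counts per kilobase (SD, n = 8 libraries), followed by *Trp53* with 2856 ± 167. The ranges of these genes did not overlap with each other or with the next in order. *Trp53inp1* (1506 ± 109), *Mdm2* (1338 ± 83.9), *Phlda3* (1287 ± 53.4) and *Sesn2* (1112 ± 108) came next on the same per-kilobase scale, and each range in this series overlapped that of its neighbour. *Cdkn1a* (536 ± 53.5), *Bbc3* (462 ± 35.1), *Zmat3* (411 ± 24.7) and *Eda2r* with its order restored (390 ± 61.3) formed the lower end, again with ranges that overlapped from each gene to the next. The range of *Sesn2*, 892 to 1231, did not overlap that of *Cdkn1a*, 447 to 615. Lengths were the union of all annotated exons, from 1559 bases for *Phlda3* to 11435 for *Zmat3*, while the methods state counting on a UCSC annotation. The order of the genes rests on these lengths, which may differ from those of the transcripts expressed.

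Over the 8 libraries the coefficient of variation ran from 4.15% for *Phlda3* to 15.7% for *Eda2r* with its order restored. Of the 10 genes, 7 lay below 7.73%, the median among 5176 names that averaged 1000 normalized counts or more. *Bbc3*, 1 of the 7, averaged 980.5 and so lay outside that set. Among those names, 87.4% had a lower coefficient than *Eda2r*, 67.2% than *Cdkn1a* and 65.75% than *Sesn2*. Counting error alone was between 0.833% and 3.53% per library over the 10 genes, from 802 reads of *Bbc3* to 14426 of *Trp53*. Over the 8 libraries the coefficient of variation of each member exceeded its own counting error, but within a passage this did not always hold, as for *Zmat3* at P16 below.

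*Trp53* had 10741, 11699, 11845 and 11037 normalized counts in clones 6, 20, 30 and 36 at P6 and 12158, 10667, 12550 and 11712 at P16. It was higher at P16 in 3 clones and lower in clone 20, and the passages overlapped. The difference, P16 minus P6, was 0.05 on the log2(normalized count + 1) scale (SE 0.06, limma with Benjamini-Hochberg adjustment, adjusted p = 0.947). A processed pseudogene of *Trp53* is annotated, and the alignment allowed several hits per read, so part of its reads cannot be placed with certainty. *Wrap53*, the antisense neighbour of *Trp53*, differed by 0.13 (SE 0.11) between the passages.

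Of the 10 genes, 0 passed an adjusted p of 0.05 for passage in limma, in edgeR or in DESeq2, with or without the row order restored, against 0.00676% of all 14791 names in limma and 0.291% in DESeq2. DESeq2 gave *Eda2r* as listed no adjusted p without the clone term, so 9 of the 10 were tested there. An unadjusted p under 0.05 was reached by 3 of the 10, *Mdm2*, *Bbc3* and *Sesn2*, against 3.5% of all names, and all 3 were lower at P16. Over the 9 targets the median difference was -0.08 with the row order restored, against -0.0027 over all names tested. Of the 9, 8 were below 0, as were 50.8% of all names. Adding the clone as a block, which pairs the libraries, left 0 of the 10 past the threshold in limma, and the 1 name called over the whole table was lost with it. DESeq2 with this block called 0.714% of names, or 0.364% with the row order restored, and again none of the 10. Before adjustment, 4 of the 10 were under 0.05 in limma with the block and the row order restored, *Mdm2*, *Bbc3*, *Sesn2* and *Eda2r*, all lower at P16, against 7.81% of all names and 4.46% that were lower. In the blocked fit of the table as deposited, 2 of the 10 were, *Mdm2* and *Bbc3*.

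*Mdm2* and *Ccng1* feed back on p53, the first by marking it for degradation and the second as a cyclin that acts with a phosphatase on Mdm2. *Mdm2* had 6866, 7381, 7064 and 7256 normalized counts in clones 6, 20, 30 and 36 at P6 and 6140, 6502, 6747 and 6444 at P16. It was lower at P16 in 4 of 4 clones and the passages did not overlap, a pattern found in 1.13% of all names. Its difference was -0.15 (SE 0.04, unadjusted p = 0.0111, adjusted p = 0.947 in limma). With the clone as a block, DESeq2 gave *Mdm2* an adjusted p of 0.0678, the lowest of any member for passage under any setting, and 0.542 with the row order restored.

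*Ccng1* had 12729, 12273, 11569 and 13551 normalized counts at P6 and 11500, 12601, 11519 and 12442 at P16, in the same clone order. The passages overlapped, with clone 20 higher at P16 and the other 3 clones lower. Its difference was -0.06 (SE 0.06).

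*Bbc3* encodes PUMA, a BH3-only protein that triggers apoptosis at the mitochondria. It had 1072, 1036, 982 and 1072 normalized counts at P6 and 908, 890, 906 and 979 at P16. Each clone was lower at P16, and the passages did not overlap, although the lowest P6 library, 982, and the highest P16 library, 979, nearly met. Its difference was -0.18 (SE 0.06, unadjusted p = 0.0168, adjusted p = 0.947 in limma). *Mdm2* and *Bbc3* were the only 2 of the 9 targets whose passages did not overlap, and no member was higher at P16 without overlap, as 1.2% of all names were.

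*Trp53inp1*, which encodes a stress protein that promotes apoptosis and autophagy, had 10820, 8937, 9398 and 10847 normalized counts at P6 and 9768, 9363, 9433 and 9466 at P16. The P16 clones lay between 9363 and 9768, inside the P6 range, and the difference was -0.07 (SE 0.07).

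*Eda2r* as listed averaged 721 ± 1190 normalized counts at P6 and 118 ± 9.32 at P16 (SD, n = 4), and its difference was -1.17 (SE 0.95, adjusted p = 0.947 in limma). Without the P6 library of clone 6, the only library in which its row is in place, the difference as listed was -0.09. With the order restored it averaged 2497 ± 330 at P6 and 2097 ± 299 at P16, lower in 4 of 4 clones with overlapping passages. The difference was then -0.25 (SE 0.12, unadjusted p = 0.0728, adjusted p = 0.973 in limma). With the clone as a block the unadjusted p was 0.0146 and the adjusted p 0.634. Together with *Mdm2* and *Bbc3*, 3 of the 9 targets were lower in 4 of 4 clones, against 9.29% of all names.

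*Cdkn1a* encodes p21, the inhibitor of cyclin-dependent kinases through which p53 arrests the cell cycle. It had 2107, 1587, 1872 and 1906 normalized counts in clones 6, 20, 30 and 36 at P6 and 1744, 2187, 1964 and 1873 at P16. Its lowest and its highest value both came from clone 20, at P6 and at P16, while clone 6 moved the other way, and the passages overlapped. The difference was 0.06 (SE 0.10), with 2 clones higher and 2 lower, and turned to -0.02 without the P6 library of clone 20, to -0.00033 without its P16 library and to -0.08 without both. The exons of *Cdkn1a* are overlapped by an annotated transcript on the opposite strand, and whether the counting used the strand is not stated.

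*Sesn2* encodes Sestrin 2, a stress-induced inhibitor of growth signalling through mTORC1. It had 4214, 4131, 3852 and 4279 normalized counts at P6 and 3099, 3745, 3864 and 3731 at P16. The P16 library of clone 6 stood lowest, clone 30 hardly differed between passages, and the ranges overlapped only through clone 30. The difference was -0.19 (SE 0.08, unadjusted p = 0.0359, adjusted p = 0.947 in limma), and -0.11 without the P16 library of clone 6. With the clone as a block the unadjusted p in limma was 0.0632 as deposited and 0.0401 with the row order restored.

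*Phlda3*, an inhibitor of Akt signalling, had 1995, 2007, 2010 and 2158 normalized counts at P6 and 1902, 1956, 2086 and 1933 at P16. The P6 library of clone 36 was highest and the passages overlapped, with a difference of -0.05 (SE 0.05). *Zmat3*, which encodes an RNA-binding zinc finger protein, had 4861, 5212, 4327 and 4913 at P6 and 4498, 4643, 4537 and 4579 at P16. The 4 P16 libraries of *Zmat3* were closer to each other (SD 62.1) than the 4 at P6 (SD 368), inside whose range they lay, and the difference was -0.08 (SE 0.06). The counting error of *Zmat3*, between 1.32% and 1.66% of its count, is about as wide as that P16 spread.

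**Figure D2:**
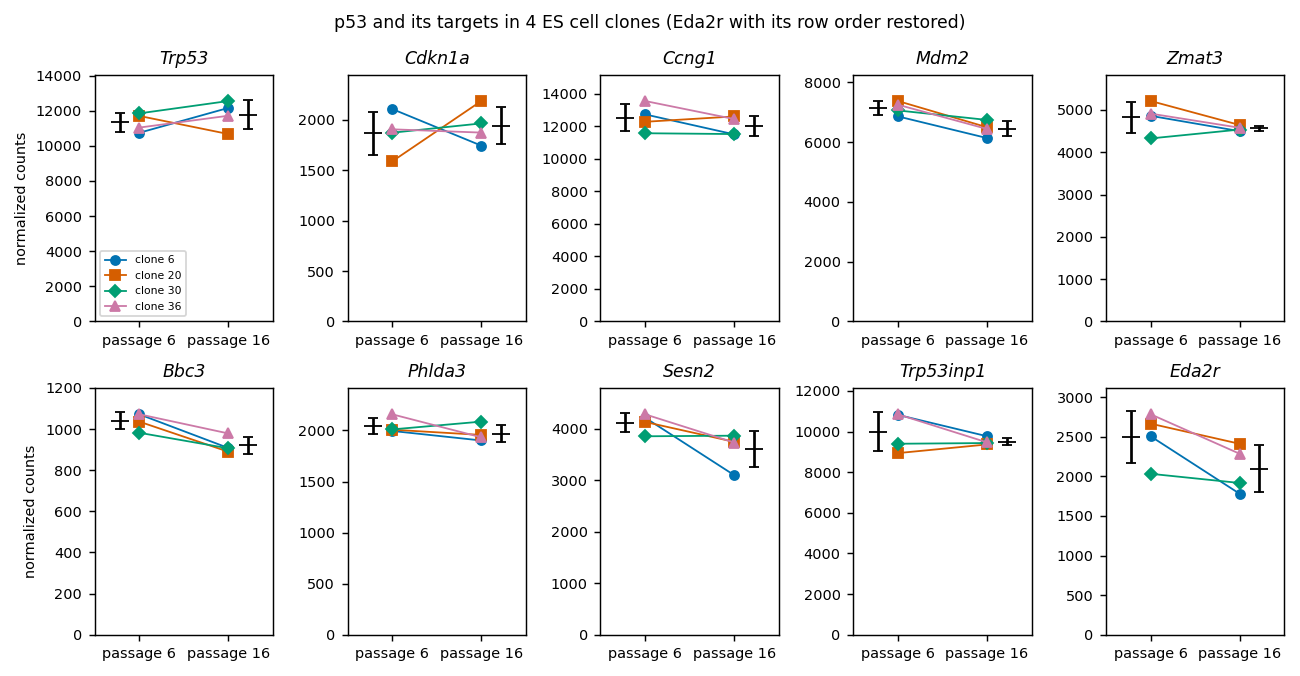
Normalized counts of the 10 genes at passage 6 and passage 16, with 1 line per clone and, beside them, the mean ± SD of 4 clones in black. Eda2r is shown with its row order restored. Only the passages of Mdm2 and Bbc3 do not overlap, and each axis starts at 0.

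**Figure D3:**
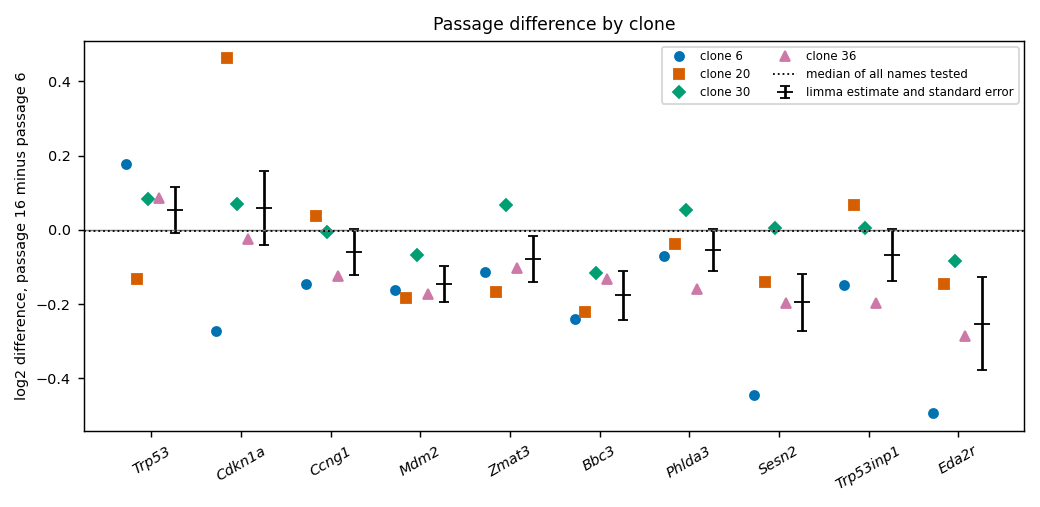
Log2 difference, P16 minus P6, of each gene in each clone (coloured symbols), with the limma estimate and its standard error (black) and the median of all names tested (dotted line). Mdm2, Bbc3 and Eda2r (row order restored) are below 0 in 4 of 4 clones, and the clones of Cdkn1a lie on both sides.

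Differences between clones were tested with the clone terms of a fit that also held passage. None of the 10 genes passed in limma, where 0.135% of all names did as deposited and 0.641% with the row order restored. None passed in edgeR or DESeq2 either, with 0.702% of names called by edgeR with the row order restored and 7.74% by DESeq2, or 6.57% with the row order restored. *Eda2r* with its order restored was the only member below an unadjusted threshold of 0.05 in limma, as were 14.4% of all names, and its adjusted p in limma was 0.306. The clone difference of *Cdkn1a* had an adjusted p of 0.996 in limma, since its clones changed order between the passages.

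Whether the targets varied together from library to library was described by correlation, with passage and clone differences left in. Over the 8 libraries the 36 pairs of the 9 targets had a median Pearson r of 0.491 on log2 values, with *Eda2r* restored, and ran from -0.298 to 0.894. An r above 0 was found in 33 of the 36 pairs, against 49.9% of all pairs of names tested, and one above 0.5 in 18, against 16.5%. These values describe 8 libraries from 4 clones, which are not independent, and all genes of a library share its size factor and depth. The 36 pairs are not independent of each other either, since they come from only 9 genes. Here and below, all pairs of names were not matched to the targets in expression level, and many names had lower counts. The shares of all pairs are therefore given as a description, and the excess of the targets over them was not tested. Without *Eda2r*, the 28 pairs of the other 8 targets had a median r of 0.427, with 13 pairs (46.4%) above 0.5.

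*Ccng1* and *Eda2r* were the pair most alike (r = 0.894), followed by *Mdm2* and *Sesn2* (r = 0.855). The r of each target with the mean of the other targets was 0.869 for *Sesn2*, 0.843 for *Ccng1*, 0.833 for *Eda2r* and 0.742 for *Bbc3*. It was lowest for *Cdkn1a*, at 0.0572, and next lowest for *Trp53inp1*, at 0.470. From the passage means this order changed, with *Mdm2* lowest at 0.272, *Cdkn1a* at 0.329 and *Trp53inp1* at 0.332, while *Ccng1* was at 0.877. *Cdkn1a* and *Ccng1*, whose promoter matches are printed above, had an r of 0.289 with each other.

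The r of *Trp53* with its targets was negative for all 9, where 49.9% of all pairs of names were above 0, from -0.0517 with *Phlda3* to -0.80 with *Ccng1* and -0.732 with *Eda2r*. When each value was taken from its passage mean, so that a shared passage difference drops out, r stayed negative with 7 of the 9 and was 0.218 with *Mdm2* and 0.133 with *Phlda3*. Without the P16 library of clone 6 it was also negative with 7, and 0.0711 with *Mdm2* and 0.171 with *Phlda3*. On the deviations from the passage means, over all 8 libraries, the median r over the pairs of targets was 0.375, with 12 of 36 pairs (33.3%) above 0.5 against 18.2% of all pairs.

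The libraries at the ends of this common variation were P6 of clone 36 and P16 of clone 6. The mean log2 deviation of the 9 targets from their 8-library means was 0.09, 0.03, -0.04 and 0.13 for clones 6, 20, 30 and 36 at P6 and -0.14, -0.0013, -0.05 and -0.03 at P16. In P6 of clone 36, 6 of the 9 targets had their highest value, *Ccng1*, *Bbc3*, *Phlda3*, *Sesn2*, *Trp53inp1* and *Eda2r*, as had 8.71% of all names, and all 9 were above their median. In P16 of clone 6, 5 of the 9 had their lowest value, *Ccng1*, *Mdm2*, *Phlda3*, *Sesn2* and *Eda2r*, as had 17.1% of all names. Both libraries were picked by the mean of these same targets, so these counts follow in part from that choice and add no separate evidence. Without P16 of clone 6 the pairs of targets had a median r of 0.503 and ran from -0.646, for *Cdkn1a* with *Mdm2*, to 0.880. Of the 36 pairs, 30 were then above 0 and 18 above 0.5, against 18.9% of all pairs.

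Depth differed between the libraries. Those with the highest target means, P6 of clones 36 and 6, were the least deep, with 23868268 and 21394069 reads. P6 of clone 20, next in target mean (0.03), had 31634237 reads, and P16 of clone 6, lowest in target mean (-0.14), had 31752466. The deepest library, P6 of clone 30 with 34295561 reads, had a target mean of -0.04. Whether depth has a part in the common variation was not tested. The fibroblast markers summed to 9241, 10830, 7152 and 6429 normalized counts in clones 6, 20, 30 and 36 at P6 and to 5883, 9473, 8871 and 7643 at P16. Their sum was lowest at both ends of the ordering and, among the other 6 libraries, the 3 with the highest target means also had the 3 highest sums. Markers of differentiated cells summed to 3383 in P6 of clone 36 and 1502 in P16 of clone 6. The part of either kind of cell was not tested.

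**Figure D4:**
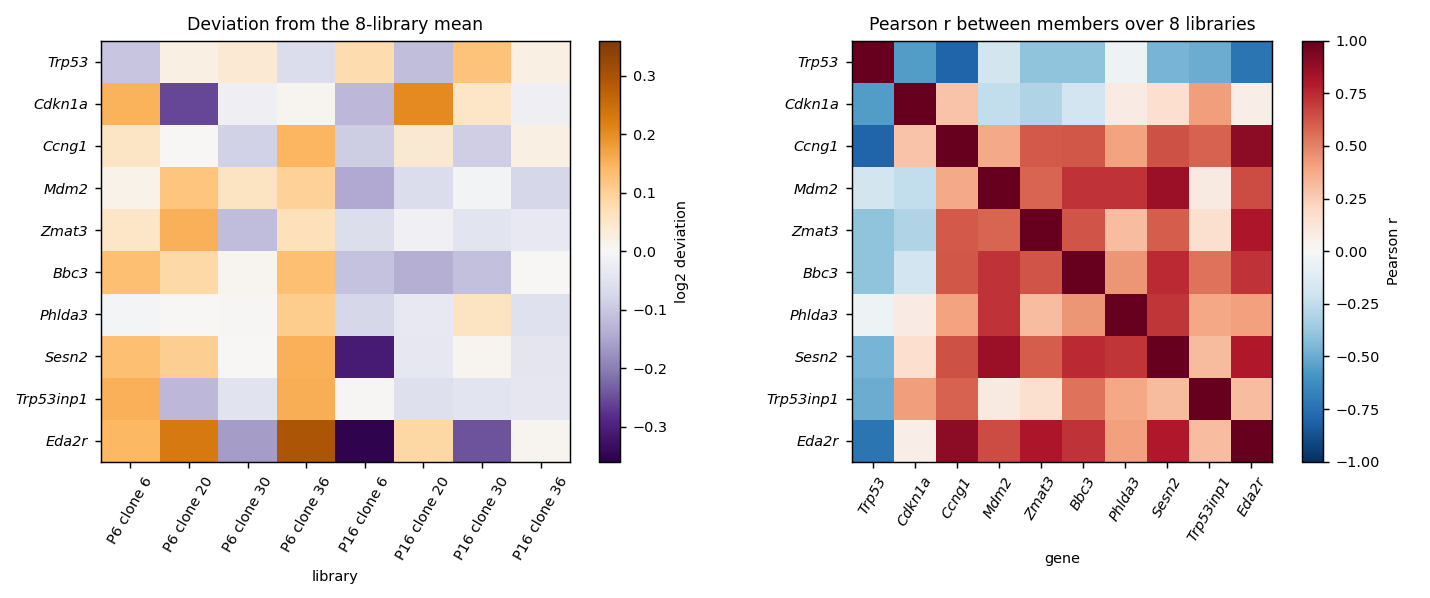
Left, log2 deviation of each gene from its mean over the 8 libraries. Right, Pearson r between the genes over the 8 libraries on log2 values. P6 of clone 36 is above the mean for all 9 targets, P16 of clone 6 is below it for all but Trp53inp1, and the Trp53 row of r is negative throughout, with Eda2r in its restored order.

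The wider pathway was described from lists of other p53 targets, regulators of p53 and genes that p21 represses through the DREAM complex, with the row order restored. Of 47 other targets, 43 had a value there, and the rows of *Gls2*, *Gdf15*, *Ak1* and *Rps27l* could not be placed. None of the 43 passed for passage or clone in limma (lowest adjusted p for clone 0.0672), nor for passage in edgeR or DESeq2. On the table as deposited, where all 47 were tested, none passed in limma or edgeR, but DESeq2 called *Pml* for passage, with and without the clone as a block. For passage, 27 were below 0 and 16 above, and the median was -0.05. Without the clone as a block, 3 had an unadjusted p under 0.05 in limma, *Plk2*, *Fas* and *Pml*, all lower at P16, against 1.69% of all names. As deposited, *Plk2* was not under it. With the clone as a block, *Pml*, *Polk*, *Tap1*, *Fas* and *Sesn1* were under it in limma, against 7.81% of all names. Of these, *Sesn1* was higher at P16. In the blocked fit as deposited, only *Pml*, *Polk* and *Tap1* were. The differences ran from -0.58 for *Fas*, a death receptor with a mean of only 30.6 normalized counts, to 0.21 for *Sesn1*, the Sestrin 1 gene.

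By role, 8 of 9 other targets that arrest the cell cycle were below 0 (median -0.09), as were 8 of 13 in apoptosis (median -0.05), 3 of 3 in feedback on p53, 2 of 7 in DNA repair (median 0.02) and 2 of 7 in metabolism and stress (median 0.06), against 50.8% of all names. The roles were not tested against each other. *Pml*, which encodes the scaffold of nuclear bodies that hold p53 cofactors, had 6085, 6227, 6394 and 6215 normalized counts at P6 and 5779, 5479, 5663 and 5369 at P16 in clones 6, 20, 30 and 36. Its passages did not overlap, as for 1.13% of all names, and its difference was -0.16 (SE 0.05, unadjusted p = 0.00647, adjusted p = 0.973 in limma). Its row is not displaced, and on the deposited table DESeq2 gave it an adjusted p of 0.0232, or 0.0487 with the clone as a block. With the row order restored for the other names, the DESeq2 values were 0.9997 and 0.478.

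Of the 43 other targets, 5 were lower and 1 was higher in 4 of 4 clones, against 9.29% and 8.1% of all names. Among those with a mean of at least 100 that moved alike in 4 of 4 clones, the largest differences were those of *Tap1*, *Polk* and *Sesn1*. *Tap1*, a peptide transporter of antigen presentation, had 366, 326, 1006 and 420 normalized counts at P6 and 258, 316, 595 and 357 at P16, a difference of -0.39 (SE 0.37, or 0.13 with the clone as a block). Clone 30 was highest at both passages, and the clone terms had an adjusted p of 0.0672 in limma. *Polk*, a translesion DNA polymerase, had 1072, 1200, 691 and 1123 at P6 and 715, 1030, 645 and 943 at P16, a difference of -0.29 (SE 0.20, or 0.09 with the clone as a block), with clone 30 lowest at both passages. *Sesn1* had 641, 669, 776 and 707 at P6 and 882, 696, 907 and 757 at P16, higher in each clone while its relative *Sesn2* was lower in 3 of 4. *Trp53cor1*, the long noncoding RNA beside *Cdkn1a*, was scarce, with a mean of 32.9 and a difference of -0.08 (SE 0.26).

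Of 23 regulators of p53, 0 passed for passage or clone in limma, while 14 were below 0 and 9 above, against 50.8% of all names below 0. Without the clone as a block, 0 had an unadjusted p under 0.05 for passage in limma, against 3.52% of all names. With the block and the row order restored, only *Mdm4* had one in limma (0.0484), as had 7.81% of all names. As deposited, the unadjusted p of *Mdm4* in the blocked limma fit was 0.0763. In edgeR and DESeq2 0 passed for passage. The range ran from -0.20 for *Mdm4*, the Mdm2-related inhibitor of p53, to 0.47 for *Trp63*, which had a mean of only 11.98. *Chek2*, a checkpoint kinase that phosphorylates p53, was higher at P16 in 4 of 4 clones by 0.16 (SE 0.11). *Trp73*, of the p53 family, and *Ep300*, an acetyltransferase that acts on p53, were lower in 4 of 4 by 0.13 (SE 0.11) and 0.10 (SE 0.06), and none of these differences passed. Of the 23 regulators, 1 was higher and 3 were lower in 4 of 4 clones, against 8.1% and 9.29% of all names.

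Of the 10 genes repressed through p21 and DREAM, 0 passed for passage in limma, edgeR or DESeq2, and 1 had an unadjusted p under 0.05 in limma, against 3.52% of all names. Their median difference was 0.09, with 9 above 0, as were 6441 of all 13104 names, and 4 were higher in 4 of 4 clones, against 8.1% of all names. That gene was *Ccnb2*, cyclin B2, with 3930, 3523, 4086 and 3741 normalized counts at P6 and 5022, 3949, 4493 and 4164 at P16, a difference of 0.20 (SE 0.08, unadjusted p = 0.0357, adjusted p = 0.973 in limma). It was highest in P16 of clone 6, as were 19.25% of all names. In that library 5 of the 9 targets were lowest, *Cdkn1a* not among them. Both *Ccnb2* and *Cdkn1a* were lowest in P6 of clone 20, as were 20.45% of all names. *Cenpa*, the centromeric histone H3 variant, and *Plk1*, a mitotic kinase, differed by 0.18 (SE 0.11) and 0.12 (SE 0.10). With the clone as a block, the unadjusted p in limma was 0.00965 for *Ccnb2*, 0.0418 for *Cenpa* and 0.0644 for *Plk1*. Of all names, 7.81% were under 0.05 in that fit.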

How the data were processed

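RNA sequencing libraries of 4 clones at 2 passages were grouped by the passage and clone in their labels. Per the methods and the submitters' processing notes, strand-specific polyA+ reads were aligned to GRCm38 with TopHat2 2.0.10 (Bowtie 1.0.0, SAMtools 0.1.19), counted per gene with HTSeq 0.5.3p9 and compared with DESeq2. The signal values that the authors deposited are read counts scaled by 1 size factor for each library. Here 100% of the values in each library came out as whole reads (within 0.0001) after multiplication by that factor.

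The main test was limma 3.58.1 (R 4.3.3, eBayes with trend) on log2(normalized count + 1) over names with a mean of at least 10, two-sided, adjusted over all names tested at 0.05, with no clone term. Differences on this scale are slightly understated at low values. edgeR 4.0.16 (quasi-likelihood) and DESeq2 1.42.0 were run on the recovered reads. The passage fits without a clone term, limma with it and the clone tests were tried on simulated counts. The edgeR and DESeq2 passage fits with the clone as a block were not. Clones pair the libraries by label. Deviations from the passage means correlated between the passages of a clone with r = 0.0964 (clone 6), 0.278 (20), 0.706 (30) and 0.428 (36), and clone 6 correlated more with another clone (0.275). Separate cultures within a clone were not sequenced.

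Row order was restored where alphabetical order allowed 1 count, taking the P6 library of clone 6 as in place, which kept 21018 names and left out 2319. Named genes were all members, the genes with the largest difference alike in 4 of 4 clones in each list, the ends of each list's range, neighbours of members, and the 5 genes most like *Cdkn1a* or the target mean. *Plk2*, *Pml* and marker genes were named after their values were seen. Members and lists were chosen with earlier results of these data known. Figures used Python 3.11.15 and matplotlib 3.10.9.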

Additional observations from a re-analysis of the deposited data

Results flagged for a closer look

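Within each passage, the 4 clones of every member and of the 9 listed genes with the largest differences were searched for a clone that stood apart from the other 3 on the log2 scale, by the gap to its nearest neighbour over the range of the group. Ratios above Dixon's 95% critical value were noted. Of 40 groups, 3 had one, where chance gives about 1 in 20, or 2 groups. *Eda2r* as listed stood apart at P6 with a ratio of 0.9105, at 2505 normalized counts in clone 6 against 109 to 145 in the others, and this is the row displaced in 7 of 8 libraries. *Phlda3* at P6 had a ratio of 0.905, with clone 36 at 2158 and the others between 1995 and 2010. *Sesn2* at P16 had a ratio of 0.841, with clone 6 at 3099 and the others between 3731 and 3864. The last 2 libraries are those in which most targets were highest and lowest.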

How the results depend on the processing

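Over 26 alternatives for passage, all but 3 of 259 values of the members kept their direction and their side of the threshold. The 3 that changed sign were those of *Cdkn1a*, which ran from -0.076 without clone 20 to 0.17 without clone 6, and was -0.017 without P6 and -0.00033 without P16 of clone 20, also with the row order restored. Of 229 clone values of members under the alternatives, 1 changed its side of the threshold, *Eda2r* as listed without P16 of clone 6. In that fit clone 6 had only its P6 library, the only one in which the row of *Eda2r* is in place. *Eda2r* as listed ran from -2.61 in DESeq2 to -0.09 without P6 of clone 6, and with its order restored from -0.35 to -0.17 without single libraries or clones. The clone as a replicate block called 0 names for passage in limma, 2 in edgeR and 98 in DESeq2, and it changed no call of a member. Over all names, the 1 call for passage became 46 in DESeq2 and 0 outside the groups of displaced rows, and ran from 1 to 26 without single libraries or clones, lowest without P6 of clone 6 or 36 and highest without clone 30. With the row order restored it was 0 in limma, with or without the block, 0 in edgeR and DESeq2, 0 to 0 without single libraries or clones, and 37 in DESeq2 with the block. The 20 calls for clones became 35 with a robust prior, 1121 in DESeq2, 62 outside the groups, and 84, 92 and 778 with the row order restored in limma, edgeR and DESeq2. Without single libraries or clones they ran from 0 without clone 20 to 165 without P16 of clone 6, with 109 without P6 of clone 6, 36 and 54 without P6 and P16 of clone 30 and 95 without clone 6. The cause was not tested. The median r of the targets was 0.375 from passage means, 0.503 without P16 of clone 6 and 0.427 without *Eda2r*. The comparisons rest on 4 clones per passage, and for *Zmat3* at P16 the spread between clones was about as small as counting error.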

Other observations

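The genes whose levels were most like those of *Cdkn1a* over the 8 libraries, among 9435 names with a mean of at least 100 outside the groups of displaced rows, were *Tmed2* (r = 0.972), *Mgat2* (r = 0.934), *Smad4* (r = 0.933), *Npc2* (r = 0.929) and *Fhdc1* (r = 0.925). For the mean deviation of the 9 targets they were *Scarb2* (r = 0.978), *Nras* (r = 0.960), *Enpp3* (r = 0.956), *Bnc2* (r = 0.955) and *Ndel1* (r = 0.953). The lists share no gene. These r values were the highest of many over 8 libraries from 4 clones and are given as a description.

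Among the pluripotency markers, *Nanog* had 7205, 6636, 7855 and 6725 normalized counts in clones 6, 20, 30 and 36 at P6 and 9071, 8188, 8863 and 8019 at P16, and *Klf4* had 4651, 4350, 4970 and 5283 at P6 and 6549, 5636, 5586 and 5546 at P16. Both transcription factors were higher at P16 in 4 of 4 clones without overlap, as were 1.2% of all names without overlap. Their differences were 0.27 (SE 0.07) and 0.28 (SE 0.08), with an adjusted p of 0.973 in limma for each. *Nanog* had an adjusted p of 0.0279 in DESeq2 with the clone as a block and the row order restored, and passed in that fit as deposited too.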
